A study of Mus musculus with 8 samples.

Results

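Chemokine ligands are small secreted proteins that guide leukocytes. They were followed here in cultured skin fibroblasts of Nd2-mutant and control mice on Illumina MouseRef-8 v2.0 arrays. All probes were taken whose gene symbol was Ccl, Cxcl, Cx3cl or Xcl followed by a number and at most 1 letter. This gave 44 probes for 35 gene symbols, of 25697 probes for 18138 symbols on the array. Nd2-mutant fibroblasts came from the conplastic strain C57BL/6J-mtALR/LtJ, with the male mice 28 and 32 and the female mice 34 and 35. Control fibroblasts came from the strain C57BL/6J-mtAKR/J, with the male mice 16 and 17 and the female mice 15 and 37. Conplastic strains share a nuclear genome, here that of C57BL/6J, and differ in the mitochondrial genome, which came from ALR/LtJ or AKR/J. All mice were 12 months of age, and each array held the RNA of the fibroblast culture of 1 mouse. No treatment is given in the labels. The comparison asks which transcripts differ between fibroblasts with and without a mutation of Nd2, a subunit of mitochondrial complex I.

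Chemokines are grouped by the spacing of their first cysteines into the CC, CXC, CX3C and XC classes, and act on G protein-coupled receptors of the same class names on leukocytes. Some are made steadily and hold cells in place, such as Cxcl12. Others, such as Cxcl1 and Ccl2, are induced in fibroblasts and other tissue cells by Tnf, interleukin 1 and NF-kB, and belong to the factors that senescent fibroblasts secrete.

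The fibroblasts expressed a set of CXC and CC ligands in both strains, led in the comparison of the strains by Cxcl12. At a detection p-value under 0.01, which sets a probe against the negative control beads of its array, 15 of the 44 probes were detected on all 8 arrays. These belonged to 11 genes: Ccl2, Ccl7, Ccl9, Ccl11, Ccl25, Ccl27, Cx3cl1, Cxcl1, Cxcl12, Cxcl14 and Cxcl16. A further 11 probes were detected on some arrays, which added Cxcl2, Cxcl4, Ccl3, Ccl4, Ccl5, Ccl17, Ccl21a and Cxcl10 to the detected genes. The remaining 18 probes were detected on no array. No probe reached detection for 16 genes: Ccl1, Ccl6, Ccl19, Ccl20, Ccl21c, Ccl22, Ccl24, Ccl26, Ccl28, Cxcl3, Cxcl9, Cxcl11, Cxcl13, Cxcl15, Cxcl17 and Xcl1. The share of probes detected on all 8 arrays was 34.1% of the chemokine ligand probes and 36.6% of all probes, and the share detected on none was 40.9% and 49.7%. Each array detected between 18 and 23 of the 44 probes. Ccl8, Ccl12, Ccl21b and Cxcl5 were not analysed here.

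The cells carried the markers of fibroblasts. All 11 fibroblast marker genes measured were detected, and their summed intensity ranged from 35475 to 41071 on the Nd2-mutant arrays and from 30187 to 43561 on the control arrays. The arrays of Nd2-mutant mice detected 10973 to 11350 probes and those of control mice 10663 to 10837. Over the tested probes, control mouse 15 correlated with the rest at 0.934 on average, and each of the other 7 mice at 0.963 to 0.974. The summed intensity of 17 macrophage markers was 2196 on the array of Nd2-mutant mouse 35, against 297 to 689 on the other 7 arrays. Cd163, Fcgr1, Itgam and Ptprc were the macrophage markers detected on no array. Of 7 T cell markers 6 were detected on no array, as were 5 of 6 neutrophil and mast cell markers. The summed intensity of 8 keratinocyte markers was 199 to 1186.5 on the Nd2-mutant and 325.3 to 966 on the control arrays, and that of 8 endothelial markers 389.5 to 504.9 and 405.3 to 941.5. In each of these lists 7 of the 8 markers were detected on at least 1 array. Of the keratinocyte markers only Krt10 and Krt14 were detected on all 8 arrays, and Krt5, Krt15 and Dsp on 1 array each. Krt14, named after its values were seen, read 38.3 to 1007 on the Nd2-mutant and 199 to 812 on the control arrays. It made 1007 of the sum of 1186.5 in Nd2-mutant mouse 32 and 812 of the 966 in control mouse 15.

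To compare the strains, negative intensities were raised to 0 and the log2 of the intensity plus 16 was used. Tests were run on probes detected in all 4 mice of either strain or of both. This left 19 chemokine ligand probes of 13 genes, among 10414 probes tested. Of the 19, 15 were detected on all 8 arrays, while Cxcl2, Cxcl4, Ccl25 ILMN_2661722 and Ccl27 ILMN_1216183 entered only through the strain with the higher mean. The fold changes of these probes therefore give no support for a difference. Log2 fold changes are Nd2-mutant over control on the scale of log2(intensity + 16), which understates the change of dim probes. Levels of different probes are not comparable, since each probe has its own brightness.

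**Figure D1:**
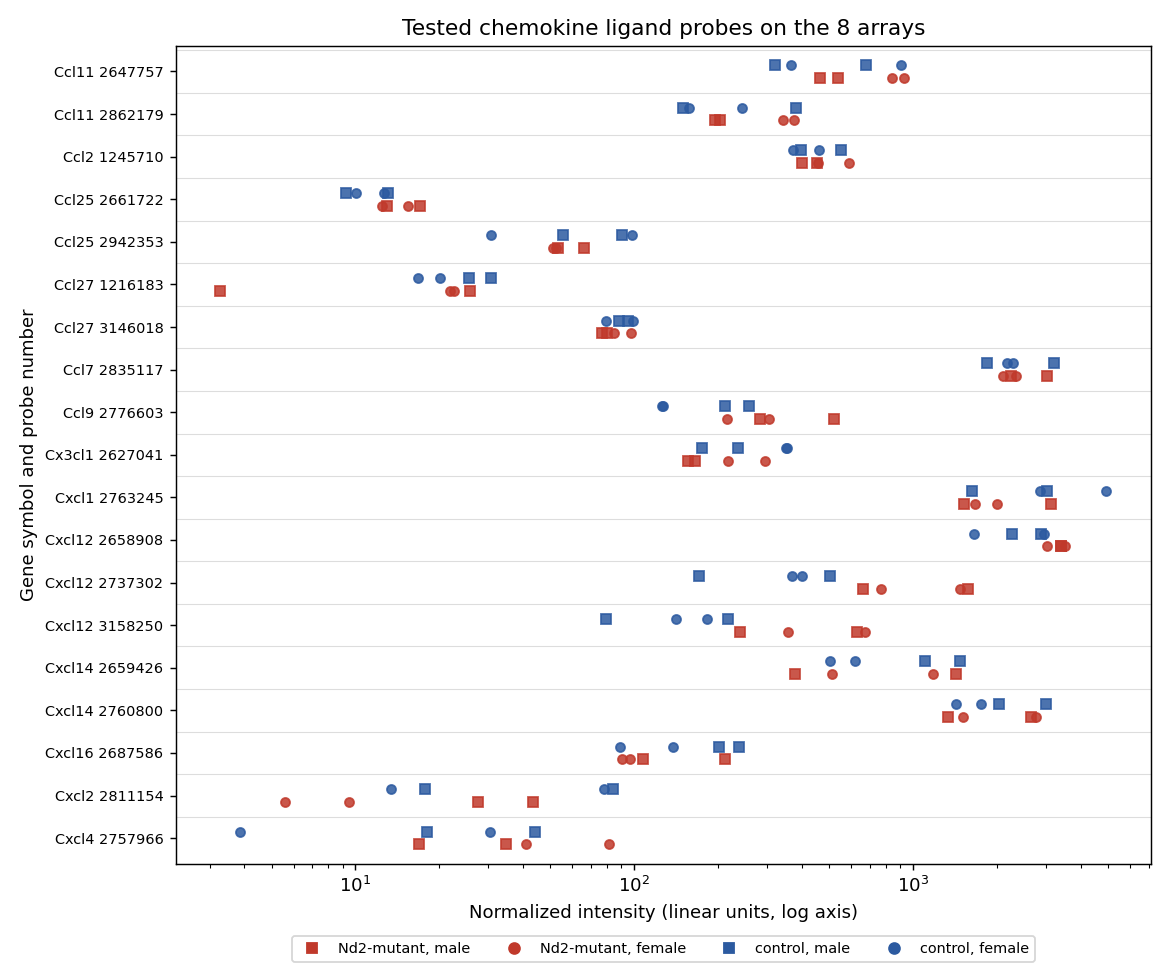
Normalized intensity (log axis) of the 19 tested chemokine ligand probes on the 8 arrays, 1 point per mouse, with Nd2-mutant mice in red, control mice in blue, males as squares and females as circles. The red points of the 3 Cxcl12 probes lie above all blue points of the same probe, while the points of the other 16 probes overlap between the strains.

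Cxcl12, which attracts leukocytes and progenitor cells through Cxcr4 and is made by stromal cells, was higher in Nd2-mutant than in control fibroblasts with each of its 3 detected probes. The probe of transcript variant 1 (ILMN_2737302) read 1581, 662, 767 and 1477 in Nd2-mutant mice 28, 32, 34 and 35. In control mice 15, 16, 17 and 37 it read 368, 171, 503 and 399. The lowest Nd2-mutant value lay above the highest control value, and mice 28 and 35 stood above mice 32 and 34. The means were 1122 ± 474 (SD, n = 4) and 360.0 ± 139 (SD, n = 4), a log2 fold change of 1.59 with a standard error of 0.36. The limma adjusted p over all tested probes was 0.639, so that the difference did not pass the threshold of 0.05. The exact permutation test, 2-sided, gave p = 0.0286, the smallest value that 4 against 4 mice allow. In these bulk cultures, fewer cells of a type and less RNA per cell cannot be told apart.

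The probe of Cxcl12 transcript variant 3 (ILMN_3158250) was also highest in Nd2-mutant mice 28 and 35. It read 627, 240.2, 356 and 673 in Nd2-mutant mice 28, 32, 34 and 35, and 142, 79.5, 217 and 183 in control mice 15, 16, 17 and 37. The groups did not overlap, though mouse 32 lay close to control mouse 17. The log2 fold change was 1.48 with a standard error of 0.35 (limma adjusted p = 0.639). The third detected probe (ILMN_2658908), for which the table gives neither a transcript variant nor a chromosome, read 3405, 3395, 3035 and 3525 in the Nd2-mutant mice and 2952, 2259.7, 2889 and 1653 in the control mice, in the same orders. Here too the groups did not overlap, with a smaller log2 fold change of 0.49 and a standard error of 0.19 (limma adjusted p = 0.639). The other 2 Cxcl12 probes, ILMN_2746295 of variant 1 and ILMN_3078973 of variant 3, were detected on no array.

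The strain difference was of unequal size between the Cxcl12 probes, but the tests of that inequality did not reach 0.05. The log2 intensity of ILMN_2737302 minus that of ILMN_2658908 averaged -1.66 in Nd2-mutant fibroblasts (SD 0.59, n = 4) and -2.76 in the controls (SD 0.68, n = 4), 1.10 apart. The exact permutation test of this difference, chosen after the values were seen, gave p = 0.0571, or 0.399 after adjustment over 7 such pairs of probes. The same difference with ILMN_3158250 in place of ILMN_2737302 was 0.99 (exact permutation p = 0.114). Between ILMN_3158250 and ILMN_2737302 the difference was -0.11 (exact permutation p = 0.314).

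The direction of Cxcl12 was the same in both sexes. For ILMN_2737302 the log2 difference between the strains was 1.44 in females and 1.74 in males, for ILMN_3158250 it was 1.52 and 1.44, and for ILMN_2658908 it was 0.56 and 0.41, each from 2 against 2 mice. Leaving out 1 mouse at a time gave 1.28 to 1.81 for ILMN_2737302, 1.23 to 1.76 for ILMN_3158250 and 0.31 to 0.59 for ILMN_2658908. Without control mouse 15 and Nd2-mutant mouse 35 together, the values were 1.47, 1.26 and 0.56. Among the cell type markers, named after their values were seen, the fibroblast matrix genes Dcn, with 1 of its 2 probes, and Lum were also higher on every Nd2-mutant than on every control array. Their log2 fold changes were 0.82 and 0.88 (limma adjusted p = 0.639 for both). The other Dcn probe, ILMN_2747959, overlapped between the strains, with a log2 fold change of 0.12 (limma adjusted p = 0.884). Of the 12 tested fibroblast marker probes 8 had the higher mean in Nd2-mutant and 4 in control fibroblasts, with a median of 0.16. The endothelial marker Emcn was lower on every Nd2-mutant array, with a log2 fold change of -1.20 and the same adjusted p. Of the 5 tested endothelial marker probes 1 had the higher mean in Nd2-mutant and 4 in control fibroblasts, with a median of -0.16. Whether these genes had a part in the Cxcl12 difference was not tested.

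**Figure D2:**
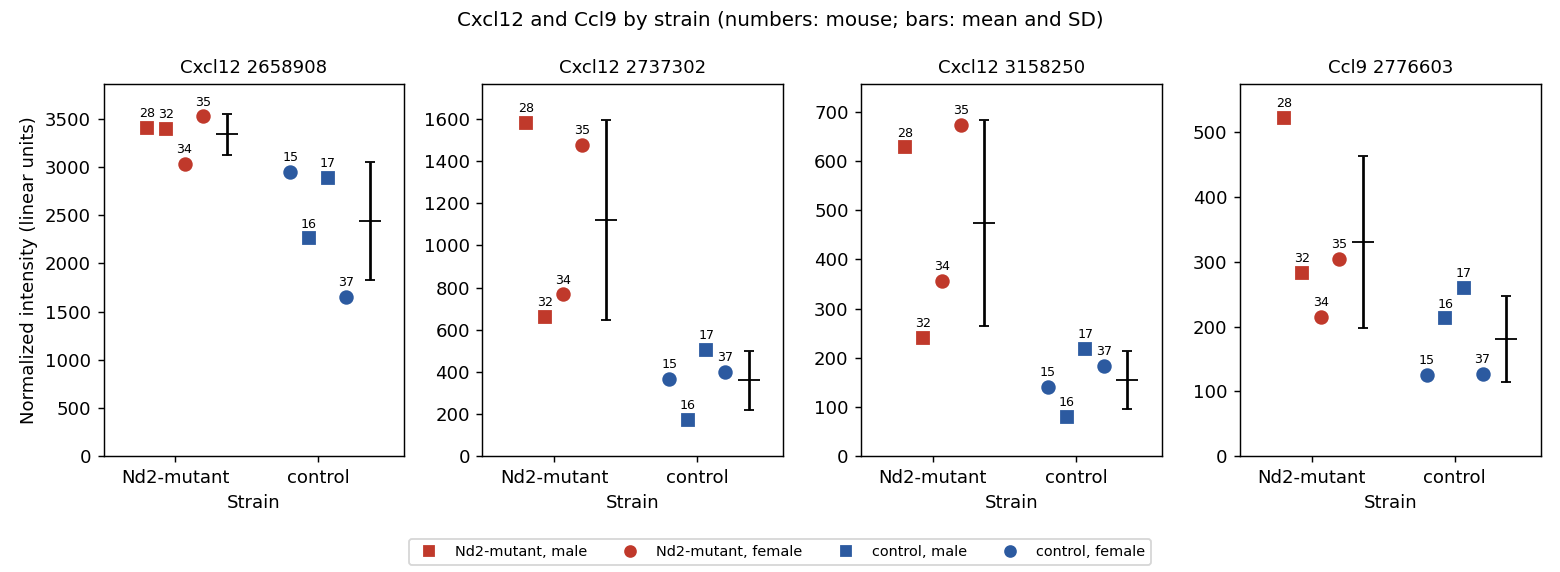
Normalized intensity (linear axes from 0) of 3 Cxcl12 probes and the Ccl9 probe by strain, 1 point per mouse with its number, with the mean and SD of each strain as bars. For Cxcl12 ILMN_2737302 the Nd2-mutant mice lie between 662 and 1581 and the control mice between 171 and 503; for Ccl9 mouse 34, at 215, lies below control mouse 17, at 259.

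Ccl9, a CC ligand of Ccr1 known from myeloid cells, had the next largest difference after Cxcl12. Its probe read 522, 283, 215 and 304 in Nd2-mutant mice 28, 32, 34 and 35, and 126, 212.5, 259 and 126 in control mice 15, 16, 17 and 37. The strains overlapped, since control mouse 17 lay above Nd2-mutant mouse 34. The means were 331 ± 133 and 181 ± 66.1 (SD, n = 4 each). The log2 fold change was 0.81 with a standard error of 0.29, with a limma adjusted p of 0.639 and an exact permutation p of 0.0571. It was 0.94 in females and 0.68 in males, ranged from 0.57 to 0.99 when 1 mouse was left out, and was 0.69 without mice 15 and 35.

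The sequences before the start sites of these 2 genes are shown because their differences were the largest among the genes, and to set out which inflammatory motifs they hold. They are RefSeq sequences of build GRCm38.p6, 250 bases that end just before the annotated start, written 5′ to 3′ on the strand of the gene. Capitals mark matches, on either strand, to the TATA box TATAAA, to the AP-1 motif TGANTCA and to the NF-kB motif. Cxcl12 lies on the plus strand (chr6:117168285-117168534) and Ccl9 on the minus strand (chr11:83578637-83578886).
Cxcl12: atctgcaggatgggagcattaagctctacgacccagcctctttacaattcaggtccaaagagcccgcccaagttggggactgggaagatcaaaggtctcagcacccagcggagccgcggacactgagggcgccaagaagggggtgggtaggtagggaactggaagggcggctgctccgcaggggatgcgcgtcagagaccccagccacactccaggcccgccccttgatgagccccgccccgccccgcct
Ccl9: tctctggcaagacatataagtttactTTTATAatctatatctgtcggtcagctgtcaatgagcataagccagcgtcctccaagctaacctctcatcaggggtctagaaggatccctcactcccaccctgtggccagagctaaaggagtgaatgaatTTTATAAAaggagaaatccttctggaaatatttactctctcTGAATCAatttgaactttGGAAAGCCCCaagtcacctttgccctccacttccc
The Cxcl12 window held no match to any of the 3 motifs, and its GC content was 64.4%. The Ccl9 window held 3 TATA box matches, 2 of them overlapping on opposite strands at 87 to 94 bases before the start. It also held 1 AP-1 match at 47 to 53 bases and 1 NF-kB match at 26 to 35 bases before the start, and its GC content was 43.6%. Of 32851 windows of this length in the RefSeq table, 12.4% held a TATA box match, 6.7% an AP-1 match and 7.3% an NF-kB match. Such a match is a description of the letters and no measured site.

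Over the 19 chemokine ligand probes, the Nd2-mutant mean was above the control mean for 10 and below it for 9. Their median log2 fold change was 0.05, against 0.001 over all 10414 tested probes, of which 50.2% were higher. The fold changes ranged from -0.68 for Cxcl2, which lies near the detection limit, to 1.59 for Cxcl12. The median size of the log2 fold change was 0.35 for the chemokine ligands and 0.16 for all tested probes. The mice of 1 strain also differed more in these probes, with a median within-strain SD of 0.50 on the log2 scale, from 0.10 to 0.82, against 0.26 for all tested probes. No chemokine ligand probe passed a limma adjusted p of 0.05, and of all tested probes 0% did. The adjusted p of the ligands ranged from 0.639 to 0.991. At an unadjusted limma p under 0.05, 4 probes were higher in Nd2-mutant fibroblasts, the 3 of Cxcl12 and that of Ccl9, and 0 were lower. Over all tested probes these shares were 4.50% higher and 3.13% lower. The number of such chemokine ligand probes was 2 without Nd2-mutant mouse 28 and also 2 without control mouse 37, where 4.51% and 10.8% of all tested probes had such a p in either direction, against 7.63% with all 8 mice. Without overlap between the strains were 3 probes higher in Nd2-mutant fibroblasts, all of Cxcl12, and 0 lower. Over all tested probes, 2.24% were higher and 2.13% lower without overlap. These 3 probes measure 1 gene.

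**Figure D3:**
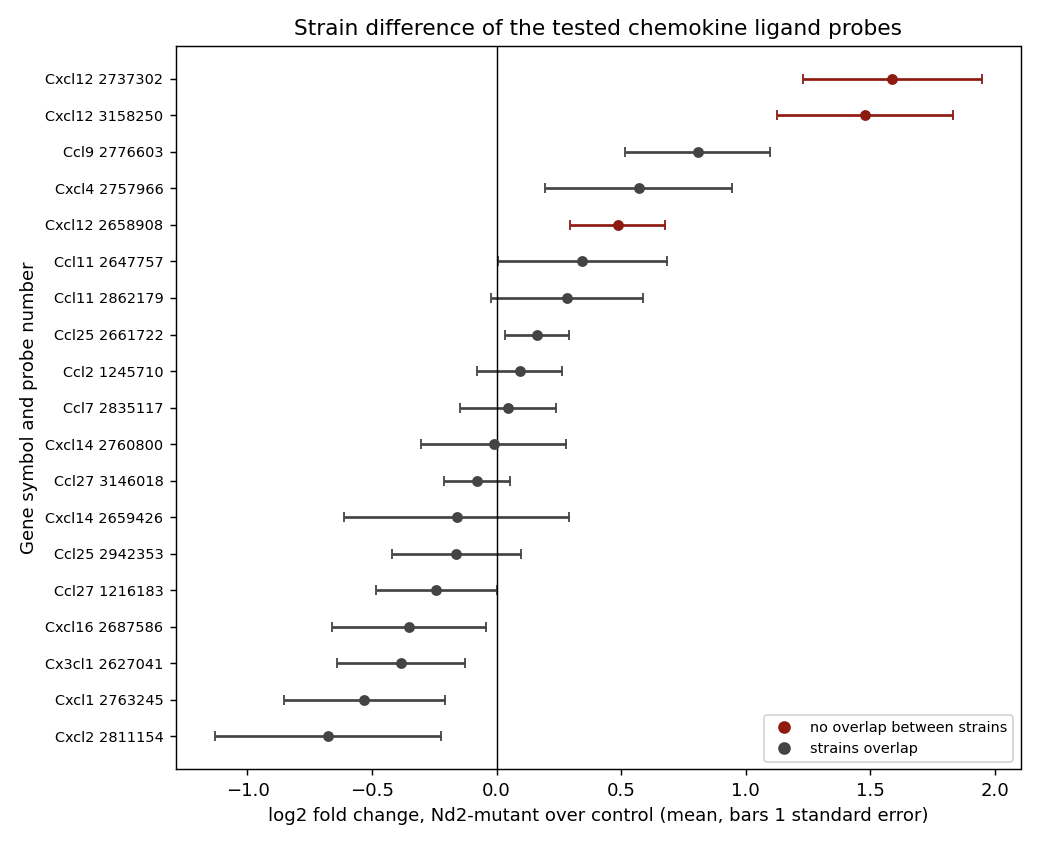
Log2 fold change of Nd2-mutant over control fibroblasts for the 19 tested chemokine ligand probes, with bars of 1 standard error, ordered by size, probes without overlap between the strains in red. The 3 red probes are those of Cxcl12, at 1.59, 1.48 and 0.49, and the lowest is Cxcl2, at -0.68.

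Cxcl1 and Cxcl2, which draw neutrophils through Cxcr2, both had lower means in Nd2-mutant than in control fibroblasts, and neither passed the test. Cxcl1 read 1520.5, 3126, 1994 and 1669 in Nd2-mutant mice 28, 32, 34 and 35, and 4934, 1624, 3029 and 2865 in control mice 15, 16, 17 and 37. The strains overlapped widely, with control mouse 15 highest and Nd2-mutant mouse 28 lowest. The log2 fold change was -0.53 with a standard error of 0.32 (limma adjusted p = 0.665), and -0.19 without mice 15 and 35. Leaving out 1 mouse at a time gave -0.81 to -0.27, the smallest without control mouse 15. In females it was -1.04 and in males -0.02, and the limma interaction of strain and sex had an adjusted p of 1.

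Cxcl2 was dimmer, with detection on 2 Nd2-mutant and 4 control arrays. It read 27.6, 43.3, 5.60 and 9.47 in the Nd2-mutant mice and 77.7, 84.1, 17.8 and 13.4 in the control mice, in the same orders. Control mice 15 and 16 were the highest, and mice 34 and 35 were not detected. The log2 fold change was -0.68 with a standard error of 0.45 (limma adjusted p = 0.685), and -0.28 without mice 15 and 35. The probe entered the test only through the control arrays, where it was higher, so that this fold change gives no support for a difference. Cxcl3, of the same group, and Cxcl15 were detected on no array.

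The windows before the starts of Cxcl1 (chr5:90890995-90891244, plus strand) and Cxcl2 (chr5:90903649-90903898, plus strand) are shown because these neighbouring genes hold the same NF-kB match, in capitals.
Cxcl1: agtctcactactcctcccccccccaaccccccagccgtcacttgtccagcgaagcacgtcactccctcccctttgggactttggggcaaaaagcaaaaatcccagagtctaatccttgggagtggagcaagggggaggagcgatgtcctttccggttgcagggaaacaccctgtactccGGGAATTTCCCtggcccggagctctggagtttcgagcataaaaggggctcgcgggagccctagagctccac
Cxcl2: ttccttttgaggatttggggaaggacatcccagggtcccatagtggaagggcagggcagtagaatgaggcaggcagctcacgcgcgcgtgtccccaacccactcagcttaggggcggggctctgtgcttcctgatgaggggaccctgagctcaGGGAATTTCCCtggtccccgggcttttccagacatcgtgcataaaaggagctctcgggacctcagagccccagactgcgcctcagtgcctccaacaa
Each held the match on both strands, overlapping, at 61 to 71 bases before the start for Cxcl1 and at 87 to 97 bases for Cxcl2. Cxcl3 held one on both strands as well. Of the 24 chemokine ligand genes with a window in the RefSeq table, 7 held an NF-kB match, 7 a TATA box match and 3 an AP-1 match. Over all windows of that table the shares were 7.3%, 12.4% and 6.7%. These are shares of windows and not of genes, and the 24 genes had 27 windows. Windows were found for 9 of the 13 tested genes, of which 3 held an NF-kB match, those of Cxcl1, Cxcl2 and Ccl9. No window was matched for Ccl2, Ccl7, Ccl11 and Cxcl16.

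Ccl2 and Ccl7, which recruit monocytes through Ccr2, were detected on every array, with overlapping values in both strains. Ccl2 read 399, 452, 458 and 589 in Nd2-mutant mice 28, 32, 34 and 35 and 460.1, 396, 550.4 and 372 in control mice 15, 16, 17 and 37. Ccl7 read 2253, 3022, 2103 and 2339.9 in the Nd2-mutant mice and 2288, 1842, 3210.25 and 2170.45 in the control mice. For neither gene did a strain stand apart. The log2 fold changes were 0.09 with a standard error of 0.17 for Ccl2 and 0.05 with a standard error of 0.19 for Ccl7 (limma adjusted p = 0.876 and 0.950).

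Ccl11, the eosinophil attractant eotaxin and a ligand of Ccr3, was measured by 2 probes. ILMN_2647757 read 536, 465, 838 and 931 in Nd2-mutant mice 28, 32, 34 and 35 and 906, 320.5, 681 and 365 in control mice 15, 16, 17 and 37. The female Nd2-mutant mice were high, as was control mouse 15, and the strains overlapped. The log2 fold change was 0.35 with a standard error of 0.34 (limma adjusted p = 0.766), and 0.45 without mice 15 and 35. ILMN_2862179 read 195 to 375 in the Nd2-mutant and 150.2 to 380.0 in the control mice, with a log2 fold change of 0.28 (limma adjusted p = 0.790).

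Cxcl14, made in normal skin, varied widely among the mice of each strain. Probe ILMN_2760800 read 1336, 2660.3, 2759.9 and 1508 in Nd2-mutant mice 28, 32, 34 and 35 and 1751, 2032, 3001 and 1432 in control mice 15, 16, 17 and 37. Probe ILMN_2659426 read 377, 1430.3, 1181 and 511 in the Nd2-mutant mice and 622, 1479.8, 1108 and 505 in the control mice. On both probes mice 32 and 34 stood above mice 28 and 35 among the Nd2-mutant mice, the reverse of the order seen with the Cxcl12 probes of variants 1 and 3. The log2 fold changes were -0.01 with a standard error of 0.29 and -0.16 with a standard error of 0.45 (limma adjusted p = 0.991 and 0.920).

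Cxcl16 and Cx3cl1 are made as membrane-bound proteins that can be shed, and bind Cxcr6 and Cx3cr1. Cxcl16 read 107, 212, 90.5 and 96.7 in Nd2-mutant mice 28, 32, 34 and 35 and 138, 237, 202 and 88.9 in control mice 15, 16, 17 and 37. Cx3cl1 read 165, 156, 217 and 295 in the Nd2-mutant mice and 354, 236, 175 and 351 in the control mice. Both overlapped between the strains. The log2 fold changes were -0.35 with a standard error of 0.31 for Cxcl16 and -0.38 with a standard error of 0.26 for Cx3cl1 (limma adjusted p = 0.743 and 0.685).

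Ccl25 and Ccl27, ligands of Ccr9 and Ccr10 on lymphocytes of gut and skin, each had a brighter and a dimmer probe. Ccl25 ILMN_2942353 read 50.9 to 66.1 in the Nd2-mutant and 30.7 to 98.6 in the control mice, with a log2 fold change of -0.16 (limma adjusted p = 0.857). Its second probe, ILMN_2661722, was detected on all 4 Nd2-mutant arrays but 1 control array, at 12.5 to 17.04 and 9.22 to 13.1, with a log2 fold change of 0.16 (limma adjusted p = 0.715). The second probe entered the test only through the Nd2-mutant arrays, where it was higher, so that its fold change gives no support for a difference. Ccl27 ILMN_3146018 of transcript variant 2 read 76.7 to 97.25 in the Nd2-mutant and 79.5 to 98.7 in the control mice (log2 fold change -0.08, limma adjusted p = 0.864). Ccl27 ILMN_1216183 of variant 1 read 3.28 in mouse 28, where it was not detected, and 21.8 to 25.7 in the other Nd2-mutant mice. The control mice read 16.8 to 30.6, and the log2 fold change was -0.24 (limma adjusted p = 0.769). Ccl27 and Ccl21 belong to groups of near-identical mouse genes, so that a probe may take up more than 1 copy.

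Cxcl4, platelet factor 4, whose current symbol is Pf4, was dim and was detected on 7 arrays. It read 16.8, 34.5, 41.0 and 81.4 in Nd2-mutant mice 28, 32, 34 and 35 and 30.5, 18.1, 44.1 and 3.85 in control mice 15, 16, 17 and 37. Mouse 35 was the highest and control mouse 37 was not detected. The log2 fold change was 0.57 with a standard error of 0.38 (limma adjusted p = 0.682). It was 0.41 without mice 15 and 35, 1.29 in females and -0.15 in males. The interaction of strain and sex, at -1.45 with a standard error of 0.67, had the smallest unadjusted limma p of the chemokine ligands, 0.0602, with an adjusted p of 1. At an unadjusted p under 0.05, 0 of the 19 probes differed between the sexes in their strain difference, where 1.77% of all tested probes did.

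The remaining detected ligands were faint and too rarely detected to be tested, 7 probes of 6 genes. Ccl4, a CC ligand made by macrophages and T cells, was detected with ILMN_1223257 on 5 arrays. It read 14.4, 8.36, 23.5 and 125 in Nd2-mutant mice 28, 32, 34 and 35 and 52.7, -0.68, 26.6 and 11.8 in control mice 15, 16, 17 and 37. Ccl3, a related CC ligand of Ccr1, was detected in mouse 35 only, at 30.7, against -0.29 to 13.1 on the other arrays. The second Ccl4 probe, at 16.5 against -1.52 to 9.45 on the other arrays, was also detected in mouse 35 only. So was Ccl5, at 10.9 against 0.64 to 9.59 on the other arrays, which was close to the others. Mouse 35 and control mouse 15 were the highest for Ccl3 and for Ccl4 ILMN_1223257, and their sums of macrophage markers were 2196 and 689. In control mouse 15 a single marker, Laptm5, made 443 of the 689, and control mouse 17 was close, at 606.8. In mouse 35 the macrophage markers Fcer1g and C1qb, named after their values were seen, read 331 and 212.5, against at most 71.6 and 30.8 on the other arrays. Other macrophage markers set mouse 35 apart less or not at all. Csf1r ILMN_2710819 read 39.5 in mouse 35, against 15.3 to 36.9 on the other arrays. Aif1 ILMN_2804487 read 14.2, against 4.84 to 13.4. Cd163, Fcgr1, Itgam and Ptprc were not detected in mouse 35 either. The part of macrophage RNA in the Ccl3 and Ccl4 values was not tested.

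**Figure D4:**
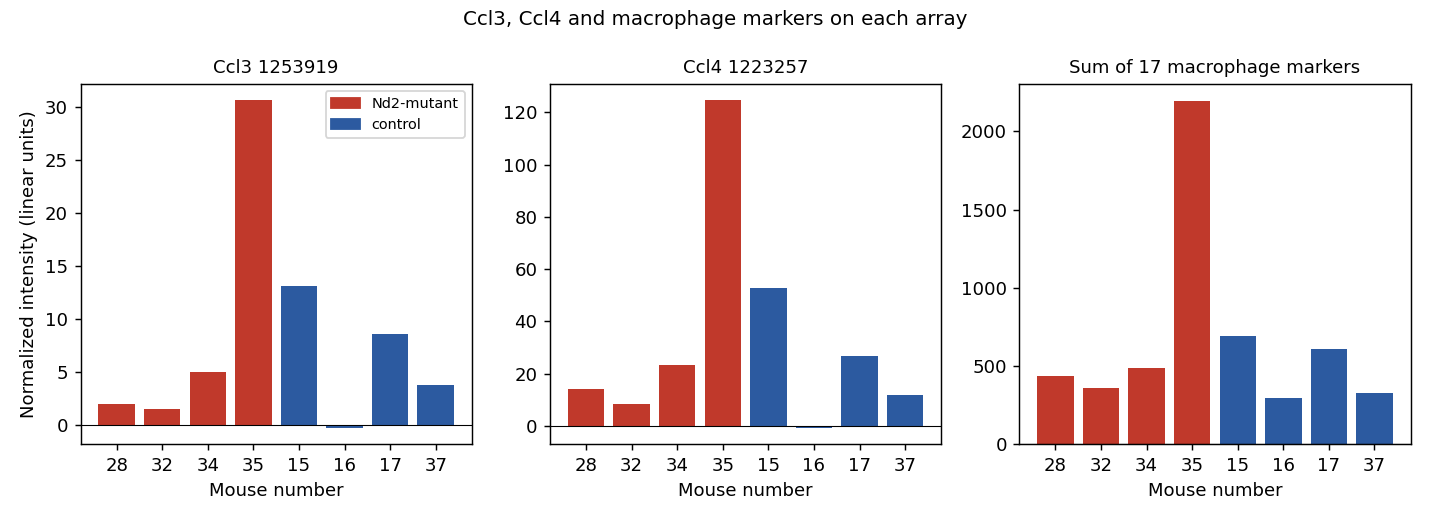
Normalized intensity (linear axes) of Ccl3, of Ccl4 ILMN_1223257 and of the summed 17 macrophage markers on each of the 8 arrays, with Nd2-mutant mice in red and control mice in blue. Mouse 35 is highest in all 3 panels, at 30.7, 125 and 2196, followed by control mouse 15, at 13.1, 52.7 and 689.

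Of the lymphocyte attractants, Ccl17 was detected in control mice 16 and 37 only, at 23.3 and 23.8, against -1.35 to 9.49 on the other arrays. Ccl21a was detected in control mouse 15 only, at 21.3, against 0.11 to 5.67 on the other arrays. Cxcl10, the only interferon-inducible ligand of Cxcr3 that was detected, read 11.4 in mouse 35 and 14.6 in control mouse 15 and was not detected elsewhere. Cxcl9 and Cxcl11 were detected on no array.

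Sex, the other labelled condition, was compared with strain as a term, as males minus females. Of the 19 probes 9 were higher in males and 10 in females, with a median of -0.04 against 0.013 for all tested probes. None passed an adjusted p of 0.05, which 0.0192% of all tested probes did. The lowest limma adjusted p among the chemokine ligands was 0.306. At an unadjusted limma p under 0.05, 2 were higher in males, Cxcl16 and Ccl9, where 3.86% of all tested probes were, and 1 was higher in females, Cx3cl1, where 4.45% were. No probe was without overlap between the sexes, against 2.49% of all tested probes higher in males and 2.67% higher in females.

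Cx3cl1 averaged 183 ± 36.1 in males and 304.0 ± 64.1 in females (SD, n = 4 each). Male mouse 16, at 236, lay above female mouse 34, at 217, and the other males lay below all females. The log2 difference was -0.68 with a standard error of 0.15 (limma adjusted p = 0.306, exact permutation p = 0.0571). Cxcl16 averaged 189.5 ± 56.9 in males and 104 ± 23.3 in females (SD, n = 4 each). Male mouse 28, at 107, lay below female mouse 15, at 138. The log2 difference was 0.75 with a standard error of 0.22 (limma adjusted p = 0.409, exact permutation p = 0.0571). Ccl9 averaged 319 ± 138 in males and 193 ± 85.3 in females, with a log2 difference of 0.69 and a standard error of 0.21 (limma adjusted p = 0.439). The exact permutation tests of the sexes held no strain term, for Cx3cl1 and Cxcl16 as for Ccl9, where the test gave p = 0.200.

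**Figure D5:**
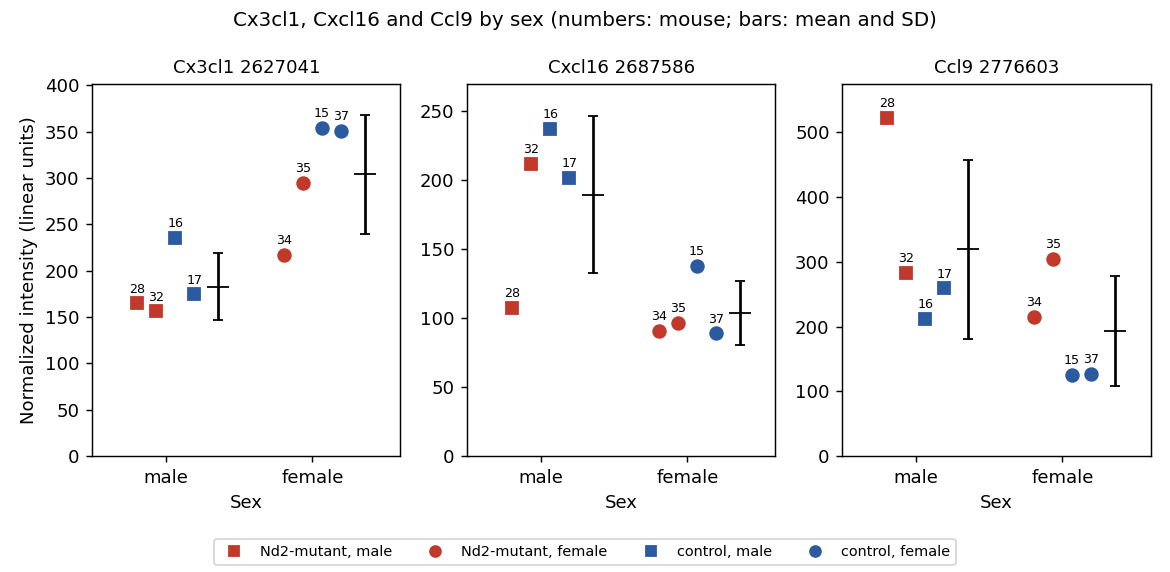
Normalized intensity (linear axes from 0) of Cx3cl1, Cxcl16 and Ccl9 in males and females, 1 point per mouse with its number, with the mean and SD of each sex as bars. Males average 183, 189.5 and 319 and females 304.0, 104 and 193, and in each panel at least 1 male lies within the range of the females.

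Among the chemokine receptors, Cxcr4, the receptor of Cxcl12, was detected on 4 arrays and could not be tested. It read 20.5, 8.49, 6.13 and 17.3 in Nd2-mutant mice 28, 32, 34 and 35 and 82.6, 32.9, 6.34 and 11.5 in control mice 15, 16, 17 and 37. Control mouse 15 was the highest and the strains overlapped. Of 5 atypical receptors, which take up chemokines without the usual signal, Ackr1 was detected on 5 arrays, with at most 22.7 in control mouse 15. Ackr3, which also binds Cxcl12, was detected on no array.

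Among 17 cytokines and receptors that induce chemokines or act with them, 10 genes had tested probes. Tnf, Il1a, Il1b, Ifng and Il17a were detected on no array. Of 21 tested probes 10 had the higher mean in the Nd2-mutant and 11 in the control mice, with a median log2 fold change of -0.05. None passed an adjusted p of 0.05, and at an unadjusted limma p under 0.05, 4 were higher and 3 lower, where 4.50% and 3.13% of all tested probes were. The 4 were the 3 probes of Tnfrsf1a, the main Tnf receptor of fibroblasts, and 1 of Il1rap, a subunit of the interleukin 1 receptor. Tnfrsf1a ILMN_1241228 read 79.9, 65.8, 77.0 and 71.5 in Nd2-mutant mice 28, 32, 34 and 35 and 15.9, 22.0, 56.3 and 40.2 in control mice 15, 16, 17 and 37. The strains did not overlap, as for 3 of the 21 probes, all of Tnfrsf1a, and for 2.24% of all tested probes in this direction. The log2 fold changes of the 3 Tnfrsf1a probes were 0.92, 0.92 and 0.88, and that of Il1rap was 0.40 (limma adjusted p = 0.639 for each). Tnfrsf1a ILMN_2469333, at 0.88, was detected on 7 arrays and entered the test only through the Nd2-mutant arrays, where it was higher. Il1rap ILMN_1233678, detected on 6 arrays and among the 10 with the higher Nd2-mutant mean, entered in the same way. Neither fold change gives support for a difference. The 3 lower were Il6, with a log2 fold change of -0.73, and 1 probe each of Lif, at -1.04, and Ifngr2, at -1.01 (limma adjusted p = 0.639 for each). Il6, a cytokine of inflamed and senescent fibroblasts, read 44.3, 100.02, 104 and 59.8 in the Nd2-mutant and 139.6, 102, 151 and 139 in the control mice, in the same orders. Nd2-mutant mouse 34 lay above control mouse 16. The Ifngr2 probe was highest in control mouse 15, at 505, against at most 191 on the other arrays. Ifngr2 was also tested with ILMN_2592709 and ILMN_1258300, which read 79.0 and 64.2 in control mouse 15. Their log2 fold changes were 0.0046 and -0.10 (limma adjusted p = 0.9958 and 0.8585).

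Of 13 NF-kB subunits and inhibitors, 13 probes of 12 genes were tested, with 4 higher, 9 lower and a median log2 fold change of -0.28. At an unadjusted limma p under 0.05, 0 were higher and 1 was lower, again beside 4.50% and 3.13% of all tested probes. This 1 was Nfkb2, with a log2 fold change of -0.36. Next were Rela, at -0.29, and Relb, at -0.54, and the limma adjusted p was 0.639, 0.639 and 0.648 for the 3 genes. The inhibitor genes Nfkbia and Tnfaip3, named after their values were seen, read 128 and 23.3 in mouse 34 and 152 and 31.2 in mouse 35, the lowest values of both genes. Of 14 proteins that cleave or bind chemokines, 14 probes of 11 genes were tested. There 4 were higher and 10 lower, with a median log2 fold change of -0.20, and 0 passed an unadjusted limma p of 0.05 in either direction. Among the 4, Sdc1 ILMN_2756943, detected on 7 arrays, entered only through the strain with the higher mean and gives no support for a difference. The 3 smallest p-values were those of the sheddase Adam17, which releases Cx3cl1, at a log2 fold change of -0.23, of Mmp1a, at -0.22, and of Mmp13, at -0.58 (limma adjusted p = 0.686, 0.713 and 0.718).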

How the data were processed

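RNA of cultured skin fibroblasts from 8 mice, 4 per strain, was hybridised to Illumina MouseRef-8 v2.0 arrays. The labels gave the strain, sex and number of each mouse. The authors extracted the signals in GenomeStudio (version not given in the sources used here), applied quantile normalization between the arrays and subtracted the background, so the deposited intensity values are linear and can be negative. Quantile normalization gives every array the same distribution, so a shift common to all probes cannot be seen. A deposited detection p-value stands beside each intensity, from the same software. Both deposited tables have identical content, so only 1 was used, and normexp correction could not be run. The table names no chip, so chip was not used as a block.

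Negative values were raised to 0 and the log2 of the value plus 16 was used. Limma 3.58.1 in R 4.3.3 tested the differences, 2-sided. Its p-values were adjusted by Benjamini-Hochberg across the 10414 probes tested, with 0.05 as the threshold. Single probes were also put through an exact permutation test. The sexes were compared in a fit that also held strain, and a further fit held the product of both. The number of arrays limits the precision, and detected probes per array measure signal over background. The steps were tested on simulated data. Figures were drawn with matplotlib 3.10.9.

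The members, gene lists, markers and tests were chosen with earlier results of these data known. Every chemokine ligand with a tested probe is described, those detected but not tested are given by their values, and the others by name. Of the receptors, inducing cytokines, NF-kB and cleaving or binding proteins, those with an unadjusted p under 0.05 are named, or the 3 with the smallest p. 1 gene of the receptor list is not reported here. Symbols were matched to RefSeq genes of GRCm38.p6 directly or as synonyms. Alternatives were other values added before log2, other detection filters, the linear scale, the methods' t-test, eBayes with a trend, array weights, sex as a term, 1 sex alone and leaving out mice.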

Additional observations from a re-analysis of the deposited data

Results flagged for a closer look

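Of 38 groups of 4 mice that were checked (19 probes in each strain), 2 held a mouse whose gap to its nearest neighbour took up more of the group's range than Dixon's critical value for 4 values, and chance flags about 1 group in 20. For Ccl25 ILMN_2942353, Nd2-mutant mouse 32 read 66.1 against 50.9 to 53.3 in mice 28, 34 and 35, a ratio of 0.8293. For Ccl27 ILMN_1216183, Nd2-mutant mouse 28 read 3.28 and was not detected, against 21.8 to 25.7 in mice 32, 34 and 35, a ratio of 0.8732. Both ratios were taken on the log2(intensity + 16) values and not on the intensities printed here. On that scale the Ccl27 probe stood at 4.27 in mouse 28, against 5.24 to 5.38 in mice 32, 34 and 35.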

How the results depend on the processing

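No chemokine ligand probe passed an adjusted p of 0.05 between the strains under any alternative run, where the lowest adjusted p was 0.207, or between the sexes, where it was 0.156. At an unadjusted limma p under 0.05 between the strains the number was 4, beside 7.63% of all tested probes in either direction. The number was 2 in males alone (5.04% of all tested probes), 6 in females alone (3.21%) and 2 by the methods' t-test (6.7%). With 1 mouse left out it was 2 to 5, beside 4.17% to 14% of all tested probes. Between the sexes it was 3, beside 3.86% of all tested probes higher in males and 4.45% higher in females. That number was 3 to 6 when 1 mouse was left out, with 6 without control mouse 17. The shares over all tested probes in those runs are not given here. Of 395 recomputed strain differences 369 kept their sign, and of 247 sex differences 224 did. For each of the 2 comparisons 10 of the 19 probes never turned. For the strains these were the 3 of Cxcl12, Ccl9, Cxcl1, Cx3cl1, Cxcl16, Ccl11 ILMN_2647757, Cxcl2 and Ccl25 ILMN_2661722. Cxcl2 and Ccl25 ILMN_2661722 entered only through the strain with the higher mean, so that their kept sign gives no support for a difference. All 57 recomputed interactions kept their sign. The median log2 fold change of the 19 probes, 0.05, was 0.168 without Nd2-mutant mouse 28, 0.193 without control mouse 17, -0.152 in males alone and 0.34, over 20 probes, in females alone. The cause of the turns was not tested.

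Strain differences that turned sign were, in males alone, Ccl11 ILMN_2862179 at -0.25, Ccl2 at -0.13 and Cxcl4 at -0.15. In females alone they were Ccl27 ILMN_3146018 at 0.03, Ccl27 ILMN_1216183 at 0.15, Ccl7 at -0.01, Cxcl14 ILMN_2760800 at 0.36 and Cxcl14 ILMN_2659426 at 0.46. With array weights they were Ccl25 ILMN_2942353 at 0.16 and both Cxcl14 probes at 0.07, and on the linear scale Cxcl14 ILMN_2760800 at 12.0 intensity units. Without mice 15 and 35 together, an alternative chosen after seeing the data, they were Ccl25 ILMN_2942353 at 0.03 and Cxcl14 ILMN_2760800 at 0.06. Leaving out 1 mouse gave -0.01 to 0.20 for Ccl2, -0.42 to 0.01 for Ccl25 ILMN_2942353, -0.36 to 0.02 for Ccl27 ILMN_1216183, -0.06 to 0.20 for Ccl7, and -0.17 to 0.19 and -0.46 to 0.17 for the Cxcl14 probes. Sex differences that turned were, without mice 15 and 35, Ccl2 at 0.11, Ccl27 ILMN_3146018 at 0.03, Ccl27 ILMN_1216183 at 0.0045 and Cxcl4 at 0.35. With 50 added Ccl27 ILMN_1216183 was at 0.0025, and with 1 added Cxcl4 was at 0.01. Leaving out 1 mouse gave -0.19 to 0.06 for Ccl2, -0.03 to 0.06 and -0.06 to 0.45 for Ccl25, -0.18 to 0.26 for Ccl27 ILMN_1216183, -0.56 to 0.03 for Cxcl1, -0.48 to 0.12 for Cxcl12 ILMN_2737302, -0.05 to 0.28 for Cxcl12 ILMN_2658908 and -0.54 to 0.15 for Cxcl4. No paired analysis was possible because no mouse number occurs in both strains. The fold change of Cxcl2, which lies near the detection limit, is uncertain.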
